A study of Mus musculus with 16 samples.

Results

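The comparison concerned the H3K27me3 that remained after EZH2 inhibition, and asked in which genes it was found in wild-type (WT) B cells, in nucleic acid sensor mutant B cells, or in both. The members are protein-coding genes on chromosomes 1 to 19 whose body, from annotated start to end on GRCm38, shared at least 1 bp with a broad peak under GSK343. There were 4899 such genes of 20661 examined. Of these, 4005 had a peak in both genotypes (19.4% of all genes examined), 584 in WT only (2.83%) and 310 in mutant only (1.50%). The remaining 15762 genes (76.3%) had a peak in neither genotype. All cells came from the spleens of C57BL/6 mice 6 to 8 weeks old and had been purified with CD43 microbeads. The mutant mice are labelled Ifih1/Rigi/cGAS triple mutant, and the controls WT. Cells of both genotypes were cultured for 48 h with BAFF and IL-4 (2 ng/mL each) and either 1 µM GSK343 or its solvent DMSO. Chromatin bound by an H3K27me3 antibody was sequenced (ChIP-seq), with 2 ChIP and 2 input samples for each of the 4 combinations of genotype and treatment.

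H3K27me3 is the trimethylated form of lysine 27 of histone H3. EZH2 is the main catalytic subunit of Polycomb repressive complex 2, which writes the mark, and GSK343 competes with its methyl donor. In differentiated cells the mark lies in broad domains over silent developmental regulators, most densely at CpG-rich promoters, and passive dilution at cell division and removal by the demethylases KDM6A and KDM6B reduce it. Ifih1 encodes MDA5 and Rigi (Ddx58 in the annotation) encodes RIG-I, which both recognise RNA in the cytosol, whereas cGAS recognises DNA there.

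Each genotype and treatment was represented by 1 deposited list of peaks, so the genotypes could not be tested against replicate error, and every difference below is a description of these lists. Duplicates were pooled for peak calling, as the path within the peak names reads. The names in the mutant lists have a prefix ending in 1, so whether those lists rest on replicate 1 alone or on both replicates cannot be told from them. Whether replicates came from separate mice is not given in the labels. Read depth is not known from peak lists. On chromosomes 1 to 19 the WT GSK343 list held 11854 peaks over 21.0 Mb (median width 1055 bp), and the mutant GSK343 list held 10705 peaks over 16.8 Mb (median width 923 bp). A peak of a given fold passed at a smaller p-value in the mutant list, where peaks of 2.9 to 3.1-fold had a median −log10 p of 4.99 against 4.65 in the WT list. In bulk chromatin, fewer cells carrying the mark and less mark per cell cannot be told apart.

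The labelled cell type was checked against its genes. None of 29 B cell genes and none of 25 housekeeping genes had a GSK343 peak in either genotype. Of all genes examined 76.3% had none either, and so did 21 of 33 T and NK cell genes. This absence alone therefore does not identify B cells. The B cell gene Ciita, the transactivator of MHC class II genes, was the only one of the 29 with a peak under DMSO, covering 1.65% of its body in WT and 2.58% in mutant cells. The mutations could not be checked, since peak lists hold no reads. Ifih1 and Ddx58 had no peak in any of the 4 lists, and neither did Ezh2, although the WT and mutant GSK343 lists lack 14 and 4 peak numbers between the peaks that flank Ezh2.

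Promoters of 6 genes are printed as examples of promoter sequence under a residual peak. They are the first 2 genes of each class, under the naming rule of the processing notes, whose promoter window was overlapped by a GSK343 peak. Each window runs from 250 bases before to 50 bases after an annotated start and is given 5′ to 3′ on the gene's strand, from RefSeq on GRCm38.p6. Capitals mark every CG, which reads CG on either strand. Gas1 (growth arrest specific 1, a membrane-anchored co-receptor of hedgehog ligands; window chr13:60177486-60177785, minus strand) and Stxbp6 (a syntaxin-binding protein of vesicle fusion; window chr12:45074434-45074733, minus strand) had a peak over this window in both GSK343 lists.
Gas1: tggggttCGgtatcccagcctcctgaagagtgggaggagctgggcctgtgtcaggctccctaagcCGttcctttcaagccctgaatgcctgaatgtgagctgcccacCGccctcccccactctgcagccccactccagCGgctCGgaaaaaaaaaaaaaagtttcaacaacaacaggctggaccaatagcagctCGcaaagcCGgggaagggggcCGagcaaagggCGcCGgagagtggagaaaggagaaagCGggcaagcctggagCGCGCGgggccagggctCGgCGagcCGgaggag
Stxbp6: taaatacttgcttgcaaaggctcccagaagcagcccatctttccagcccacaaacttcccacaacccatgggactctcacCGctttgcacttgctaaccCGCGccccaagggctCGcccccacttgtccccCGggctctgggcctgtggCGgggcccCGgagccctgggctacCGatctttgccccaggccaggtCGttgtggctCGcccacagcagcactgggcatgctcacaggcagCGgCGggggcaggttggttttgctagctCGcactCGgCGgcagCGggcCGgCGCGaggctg
Errfi1 (a feedback inhibitor of the EGF receptor; window chr4:150854820-150855119, plus strand) and 4930519G04Rik (a gene named only by its clone; window chr5:114853464-114853763, plus strand) were overlapped in the WT GSK343 list alone.
Errfi1: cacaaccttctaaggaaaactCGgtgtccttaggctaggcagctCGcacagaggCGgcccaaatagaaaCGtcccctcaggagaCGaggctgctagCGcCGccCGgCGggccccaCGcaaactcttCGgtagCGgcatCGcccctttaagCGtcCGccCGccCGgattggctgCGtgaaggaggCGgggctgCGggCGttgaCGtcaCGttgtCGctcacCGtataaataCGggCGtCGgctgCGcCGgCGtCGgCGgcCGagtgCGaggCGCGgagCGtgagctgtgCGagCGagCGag
4930519G04Rik: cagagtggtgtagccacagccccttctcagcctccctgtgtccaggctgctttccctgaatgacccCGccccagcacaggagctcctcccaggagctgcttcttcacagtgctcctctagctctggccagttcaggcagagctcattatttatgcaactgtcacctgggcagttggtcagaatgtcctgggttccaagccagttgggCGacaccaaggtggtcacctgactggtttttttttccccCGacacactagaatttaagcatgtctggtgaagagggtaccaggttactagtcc
Dscam (a neuronal adhesion molecule; window chr16:97170686-97170985, minus strand) and 2510009E07Rik (named only by its clone; window chr16:21694616-21694915, minus strand) were overlapped in the mutant GSK343 list alone.
Dscam: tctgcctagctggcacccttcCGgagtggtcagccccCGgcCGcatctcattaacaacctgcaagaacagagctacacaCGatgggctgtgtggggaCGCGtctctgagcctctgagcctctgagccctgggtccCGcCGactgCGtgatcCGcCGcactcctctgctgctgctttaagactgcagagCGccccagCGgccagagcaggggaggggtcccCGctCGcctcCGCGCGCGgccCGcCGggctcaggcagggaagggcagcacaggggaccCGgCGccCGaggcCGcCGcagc
2510009E07Rik: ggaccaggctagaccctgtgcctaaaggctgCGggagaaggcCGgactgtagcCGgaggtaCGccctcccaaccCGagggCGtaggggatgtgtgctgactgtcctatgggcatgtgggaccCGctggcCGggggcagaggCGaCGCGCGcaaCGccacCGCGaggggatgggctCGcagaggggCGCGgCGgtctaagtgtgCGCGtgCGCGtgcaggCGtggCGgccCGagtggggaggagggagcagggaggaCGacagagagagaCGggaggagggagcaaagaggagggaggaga
The windows held 17 CG in Gas1, 19 in Stxbp6, 41 in Errfi1, 3 in 4930519G04Rik, 26 in Dscam and 28 in 2510009E07Rik. A window without many CG was therefore among those covered in WT cells only. The other 5 were at or above 15 CG, the median over genes when each is taken at its window of most CG.

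CpG content was then compared over all genes with a window, which were 16456 of 20661. A gene with several windows was taken at its window of most CG, and a peak over any of them counted. By this measure the median gene had 15 CG, and 51.5% of genes had at least 15. Genes with a GSK343 peak in both genotypes had a median of 20 CG and 65.8% reached 15. Genes with a peak in WT only had a median of 13.5 and those in mutant only a median of 12, with 46.5% and 41.7% reaching 15. Both 1-genotype classes thus lay near the 14 CG and 48.5% of genes with a peak in neither list. A residual peak also met a promoter window more often in shared genes. Among shared genes with a window, 77.1% had a WT peak over it (95% Wilson interval 75.5 to 78.6%) and 73.3% a mutant peak (71.7 to 74.8%). Among WT-only genes 35.8% had their WT peak over the window (31.6 to 40.3%), and among mutant-only genes 25.9% had their mutant peak there (20.8 to 31.7%). These intervals cover the counting of genes only, since neighbouring genes can share a peak. The best peak of a shared gene had a median width of 2366 bp in WT and 1915 bp in mutant cells. It was 632.5 bp wide in WT-only and 430.5 bp in mutant-only genes. Wider peaks have more bases to meet a window, so these shares do not show a preference for the start. The part of width was not tested. Called on the windows themselves, 2077 genes (12.6% of 16456) had a peak over a window in both genotypes, 397 in WT only and 183 in mutant only.

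Developmental transcription factors carried called H3K27me3 in both genotypes. Across 6 lists (Hox, other homeobox, forkhead, Sox with T-box and Gata, Pax, and tissue-specific bHLH factors), 232 of 266 genes had a GSK343 peak in both genotypes, which is 87.2% against 19.4% of all genes. A further 4 were in the WT list only, 0 in the mutant list only and 30 in neither. The 4 were Hoxb4, the forkhead genes Foxp1 and Foxi1, and the T-box gene Tbx10, with between 112 and 416 bp covered. For Foxi1 the mutant list lacks 1 peak number between the peaks on either side, as described further on. The absence of mutant-only genes depended on the threshold: when peaks needed a −log10 p of at least 5 there were 14, against 5 in WT only, so the direction turned. There were 4 at a q-value of at most 0.01, against 5 in WT only, and 4 at a fold of at least 3, against 7 in WT only.

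The homeobox families held most of these genes. Other homeobox factors, such as the Lhx, Nkx, Dlx and Irx genes, were in both lists for 101 of 101 genes, with a median of 82.8% of the body covered in WT and 81.9% in mutant cells. Of 39 Hox genes, which set position along the body axis, 37 were in both lists. Their median coverage was 99.6% in WT and 81.5% in mutant cells. Neighbouring Hox genes share peaks, so these medians count some peaks several times. Hoxd13 was covered over 100% in WT and 40.3% in mutant cells, and Hoxa6 the other way round, over 10.5% and 59.4%. Hoxd3 (chr2:74711993-74748271) carried 25.9 kb of peaks in WT and 24.4 kb in mutant cells, of which 18.7 kb were the same bases. The largest covered length of the other homeobox factors was at Lmx1b, a LIM factor of limb and midbrain, with 22.3 kb in WT and 28.3 kb in mutant cells. Of 41 forkhead factors 25 were in both lists, of 38 Sox, T-box and Gata factors 32, of 38 tissue bHLH factors 30 and of 9 Pax factors 7. Pax2, a kidney and eye regulator, was covered over 31.7% in WT and 25.4% in mutant cells. Median coverage over the 232 shared developmental factors was 81.5% in WT and 71.5% in mutant cells, with 115 covered more in WT, 76 more in mutant and 41 equally.

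**Figure D1:**
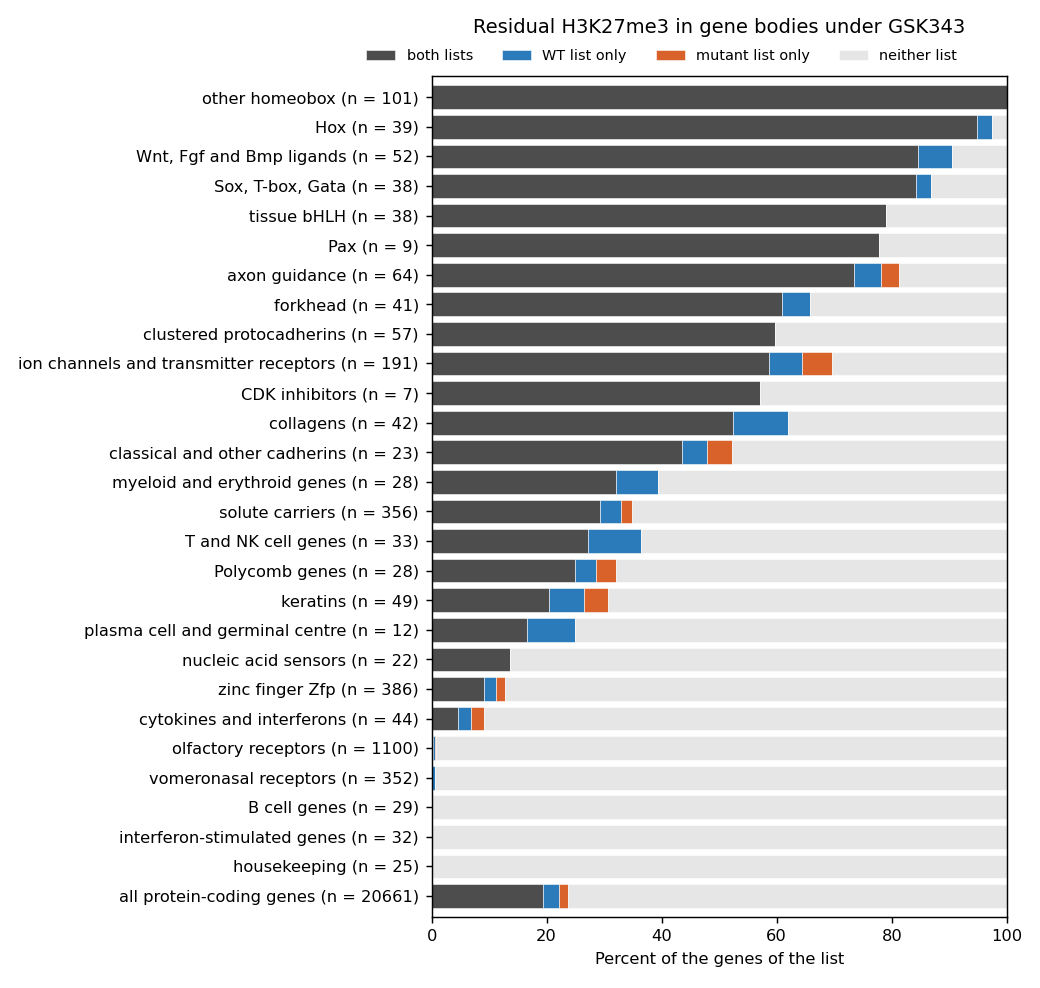
Horizontal bars give, for each gene list named at the left with its number of genes, the percent of genes with an H3K27me3 peak under GSK343 in both lists, in the WT list only, in the mutant list only, or in neither. Other homeobox genes are in both lists throughout (101 of 101), while the listed B cell, interferon-stimulated and housekeeping genes have no GSK343 peak. Of all protein-coding genes 76.3% have none.

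Signalling, adhesion and channel families were counted next. Over all genes examined, 19.4% were in both lists, 2.83% in WT only and 1.50% in mutant only. Median body length was 53.6 kb for axon guidance genes, 52.1 kb for channels and receptors, 110 kb for collagens and 0.95 kb for olfactory receptors. Over all genes it was 17.5 kb. Longer bodies have more bases to meet a peak, and the part of length in these counts was not tested. Of 52 Wnt, Fgf, Bmp and hedgehog ligands 44 were in both lists (84.6%), 3 in WT only (Fgf1, Fgf6 and Fgf22) and 0 in mutant only. Wnt6 carried 15.1 kb in WT and 12.2 kb in mutant cells. Axon guidance ligands and receptors were shared for 47 of 64 genes, with 3 in WT only (Plxnb2, Epha1, Epha2) and 2 in mutant only (Epha3, Sema3a). Ion channels and transmitter receptors, which neurons and muscle use, had 112 of 191 genes in both lists, 11 in WT only and 10 in mutant only. The NMDA receptor subunits illustrate this spread: Grin2d was covered over 41.1% in WT and 37.6% in mutant cells, while Grin2a had 1220 bp in mutant cells only. The sodium channel Scn9a was in the WT list only and Scn1a in the mutant list only. Collagens were shared for 22 of 42 genes, with 4 in WT only (Col18a1, Col9a3, Col6a6 and Col7a1) and 0 in mutant only. The clustered protocadherins had 34 of 57 in both lists and 0 in 1 list only, but these genes overlap each other and share peaks. Olfactory receptors, the odour receptors of sensory neurons, had a peak in both lists for 3 of 1100 genes, in WT only for 3 and in mutant only for 2.

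Genes of other blood lineages and of later B cell stages were then examined. T and NK cell genes were in both lists for 9 of 33 (27.3% against 19.4% of all genes), in WT only for 3 and in mutant only for 0. Gata3, which directs T helper 2 fate, was covered over 46.9% in WT and 38.0% in mutant cells, and Thy1, a surface glycoprotein of T cells, over 28.9% and 8.39%. The 3 in WT only were Cd3e and Lat, both parts of T cell receptor signalling, and Icos, a costimulatory receptor. Cd3e had 1876 bp in 3 WT peaks and its nearest mutant peak lay 7.475 kb away. Under DMSO its body was covered over 90.3% in WT and 100% in mutant cells. Myeloid and erythroid genes were in both lists for 9 of 28 (32.1%), in WT only for 2 and in mutant only for 0. The 2 were Mpo (myeloperoxidase) and Ly6g (a neutrophil surface protein). Hba-a1, an alpha globin, was covered over 33.1% in WT and 91.3% in mutant cells, and Cd14, a co-receptor for lipopolysaccharide, over 100% in both. Of 12 plasma cell and germinal centre genes, Prdm1 and S1pr2 were in both lists (16.7%). Prdm1, the master regulator of plasma cells, was covered over 4.80% in WT and 2.92% in mutant cells. Sdc1, which encodes the plasma cell surface protein CD138, was in the WT list only, with 1195 bp.

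Immune genes next to the mutated pathway were then counted. None of 32 interferon-stimulated genes had a GSK343 peak, where 76.3% of all genes examined had none. Under DMSO 1 of the 32 had a peak in WT and 4 in mutant cells, against 32.6% and 35.1% of all genes. The list was fixed and leaves out interferon-induced genes that were counted elsewhere, such as Cxcl9. Of 44 cytokine and interferon genes, Cxcl12 and Tslp were in both lists, Ifna2 in WT only (137 bp) and Cxcl9, a chemokine that interferon gamma induces, in mutant only (477 bp). Under DMSO, 16 of the 44 had a peak in WT and 23 in mutant cells, where the shares of all genes were 32.6% and 35.1%. The mutant DMSO list was also the longer one over the whole genome, at 132 Mb against 83.9 Mb, and the difference at these genes was not tested. Of 22 nucleic acid sensor genes 3 were in both lists (13.6% against 19.4% of all genes): Aim2, Adar and Cgas. Cgas (chr9:78430518-78443237), one of the mutated genes, was covered over 47.5% in WT and 23.2% in mutant cells under GSK343, and over 88.7% and 90.5% under DMSO. The Cgas peaks under GSK343 held 6040 bp in WT and 2946 bp in mutant cells, with 1221 bp in common.

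Polycomb genes and cell cycle inhibitors completed the lists. The Polycomb genes Epop, Pcgf2, Cbx2, Cbx7, Cbx8, Bmi1 and Pcgf1 were in both lists. Pcgf5 was in the WT list only with 502 bp, and Kdm6b, which removes H3K27me3, was in the mutant list only with 1193 bp, although a WT peak lay 0.233 kb outside the gene. Of 7 inhibitors of cyclin-dependent kinases 4 were in both lists. Cdkn2a (chr4:89274473-89294619) was covered over 73.3% in WT by 4 peaks and 56.4% in mutant cells by 8 peaks. Its neighbour Cdkn2b (chr4:89306289-89311032) was covered over 100% by 1 peak in WT and over 48.5% by 3 peaks in mutant cells.

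Among the 4005 shared genes the WT list covered more bases in 2451 (61.2%), the mutant list in 1450 (36.2%), and 104 were equal. WT peaks covered 11.9 Mb of these gene bodies and mutant peaks 10.2 Mb, a ratio of 0.857. The bases covered in both came to 8.07 Mb, which is 67.8% of the WT and 79.2% of the mutant bases. Of the bases covered in at least 1 genotype, the share covered in both had a median of 59.8% per gene. The median difference in covered share was 0.31 percentage points in favour of WT, where the median coverage itself was 6.40% in WT and 5.03% in mutant cells. In 116 genes the WT and mutant peaks shared no base, so that a gene counted as shared can carry separate peaks. The body was fully covered in 181 genes in WT and in 131 in mutant cells, of which 97 were the same genes.

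**Figure D2:**
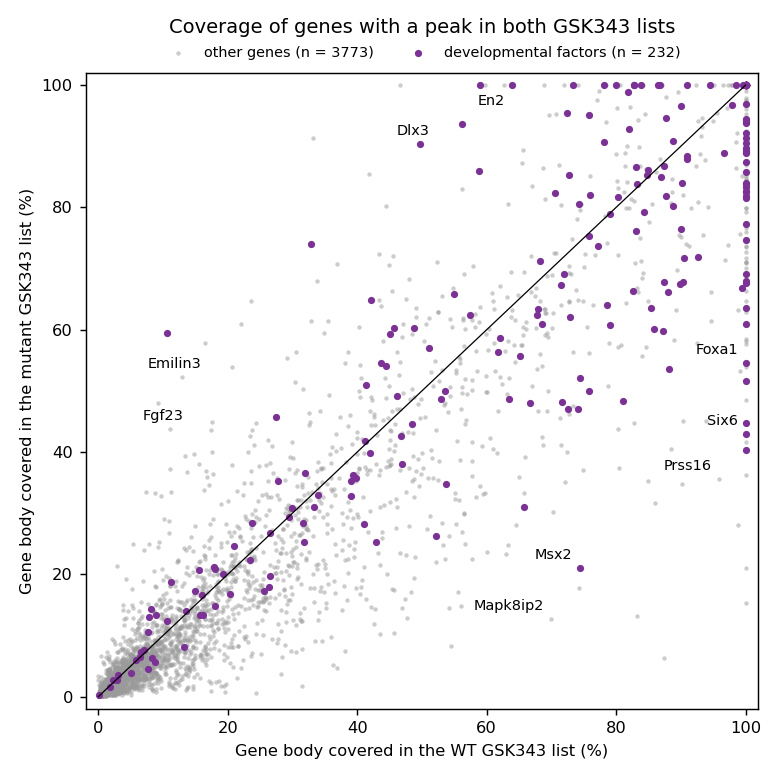
Each point is a gene with a peak in both GSK343 lists, placed by the percent of its body covered in the WT list (horizontal axis) and in the mutant list (vertical axis). The line marks equal coverage, and developmental factors are in purple. Most genes lie near the line at low coverage, and Six6 (100% and 43.0%) and Dlx3 (49.7% and 90.3%) lie far from it on opposite sides.

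The genes of highest fold in both lists, ranked by the lower of their best folds, were Gas1, Stxbp6, Prdm6 (a PR-domain factor of smooth muscle), Tmem229a, the homeobox gene Nkx2-4, Synm (the intermediate filament protein synemin), Steap2 (a metalloreductase), Snap91 (a clathrin adaptor of synapses), Clic6 (a chloride channel protein) and Sptbn4 (a spectrin of neurons). Gas1 (chr13:60174405-60177535) was covered over 60.8% in WT and 66.0% in mutant cells under GSK343, and 100% in both under DMSO. Its best peak had a fold of 4.23 in the WT list and 4.41 in the mutant list. At Stxbp6 (chr12:44852484-45075118) a single peak of 1388 bp in WT and 1401 bp in mutant cells lay in a body of 222.6 kb, with all 1388 bp in common. Nkx2-4 was covered over 100% in WT and 81.9% in mutant cells. Sptbn4 differed in form, with 30.4 kb in 10 WT peaks and 26.8 kb in 15 mutant peaks. A fold is the authors' ratio of ChIP over background within one list. Elsewhere folds of both lists, or counts at a common fold cutoff, stand side by side as a description. Since a given fold passed at different p-values in the lists, such differences are not read as differences of genotype.

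A few shared genes of at least 5 kb differed widely in coverage. The 5 with the largest excess in WT were Prss16, Mapk8ip2, Six6, Msx2 and Foxa1. Prss16 (a serine protease of the thymic cortex; chr13:22002176-22009741) was covered over 96.0% in WT and 35.6% in mutant cells, against 100% in both DMSO lists. Mapk8ip2 (a scaffold of JNK signalling; chr15:89453911-89462447) was covered over 70.0% and 12.6%. Six6 (an eye field homeobox factor; chr12:72939882-72944899) was covered over 100% and 43.0%, and its 2156 mutant bp all lay within the WT peak. Msx2, a homeobox factor of skull and limb, was at 74.4% and 21.1%. Foxa1, a pioneer factor of endoderm, was at 100% by 1 peak and 54.6% by 3 peaks. In all 5 the mutant cells under DMSO were covered over 100%.

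The 5 with the largest excess in mutant cells were Dlx3, Emilin3, En2, Tmem198 and Fgf23. Dlx3 (a homeobox factor of skin and bone; chr11:95120117-95125296) was covered over 49.7% in WT and 90.3% in mutant cells. Emilin3, an extracellular matrix protein, was at 12.9% and 52.3%, where both DMSO lists reached 53.4% and 53.3%. En2, a midbrain homeobox factor, was at 64.0% and 100%. Fgf23, a hormone of phosphate balance, was at 11.0% and 43.7%. For all 5 the WT bases lay entirely within the mutant peaks. Large differences in covered share therefore occurred in both directions, and developmental homeobox genes were among both sets.

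Peaks were more often divided in mutant cells. Of 6832 WT peaks overlapped by the mutant list, 980 (14.3%) met at least 2 mutant peaks, while 372 of 7666 overlapped mutant peaks (4.85%) met at least 2 WT peaks. Over all shared genes the number of peaks per gene was higher in mutant cells in 708, higher in WT in 676 and equal in 2621. At the 232 developmental factors it was higher in mutant cells in 57 and in WT in 30, with 3.07 kb covered per peak in WT and 2.50 kb in mutant cells. The overlapped WT peaks were also wider, with a median of 1914 bp against 1429 bp for the overlapped mutant peaks, and the part of width in these counts was not tested.

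Genes with residual H3K27me3 in one genotype only carried short peaks of low rank. The WT-only genes had a median of 541 bp covered (2.17% of the body), and the mutant-only genes 382.5 bp (1.06%). Shared genes had 2060 bp in WT and 1764 bp in mutant cells. The best peak of a WT-only gene had a median fold of 2.86 and a −log10 q of 1.64, and that of a mutant-only gene 2.77 and 1.55, where both lists end at 1.07. At least 1 kb was covered in 141 of the 584 WT-only genes (24.1%) and in 29 of the 310 mutant-only genes (9.35%). Just inside the rule were Stag3, with 1 bp of a WT peak, and Vac14, with 6 bp of a mutant peak. Just outside were Kcnk6, 5 bp from a WT peak, and Lypd4, 1 bp from a mutant peak.

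**Figure D3:**
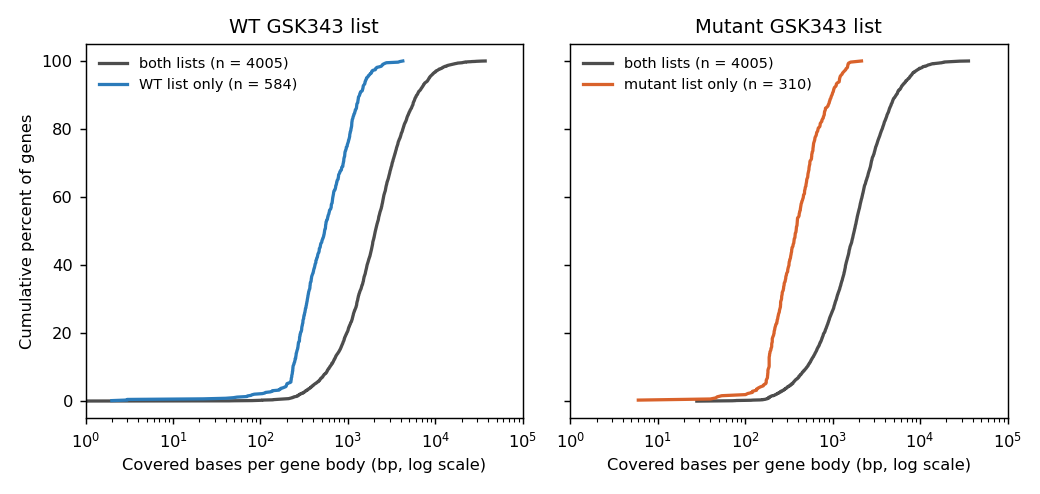
Cumulative percent of genes (vertical axis) against the bases covered per gene body (horizontal axis, log scale), for the WT GSK343 list at the left and the mutant GSK343 list at the right. Genes with a peak in 1 list only lie to the left of shared genes, with medians of 541 bp against 2060 bp in WT and 382.5 bp against 1764 bp in mutant cells.

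Under DMSO these genes were marked in both genotypes. Of the 584 WT-only genes 563 had a peak in the mutant DMSO list, which is 96.4% (95% Wilson interval 94.6 to 97.6%), and 561 in the WT DMSO list. Of the 310 mutant-only genes 296 had a peak in the WT DMSO list, which is 95.5% (92.6 to 97.3%), and 303 in the mutant DMSO list. By contrast, of the 15762 genes without a GSK343 peak 11.9% had a WT and 15.2% a mutant DMSO peak. Over all genes examined the shares were 32.6% and 35.1%. Gene bodies had a median length of 15.2 kb in neither list, 26.0 kb in WT only, 37.4 kb in mutant only and 31.6 kb in both. Longer bodies have more bases to meet a peak, and the part of length in these shares was not tested. Median DMSO coverage of WT-only genes was 11.6% in WT and 16.5% in mutant cells, and of mutant-only genes 5.61% and 10.8%. Shared genes were covered over 22.5% and 31.1%. The mutant DMSO value was the larger in each class, also in the genes found in the WT list only under GSK343. The mutant DMSO list was the longer one over the whole genome, at 132 Mb against 83.9 Mb on chromosomes 1 to 19. A peak of the other genotype under GSK343 lay within 5 kb of 18.7% of WT-only genes (15.7 to 22.03%) and 19.03% of mutant-only genes (15.1 to 23.8%), and the median distance was 44.2 kb and 45.7 kb.

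**Figure D4:**
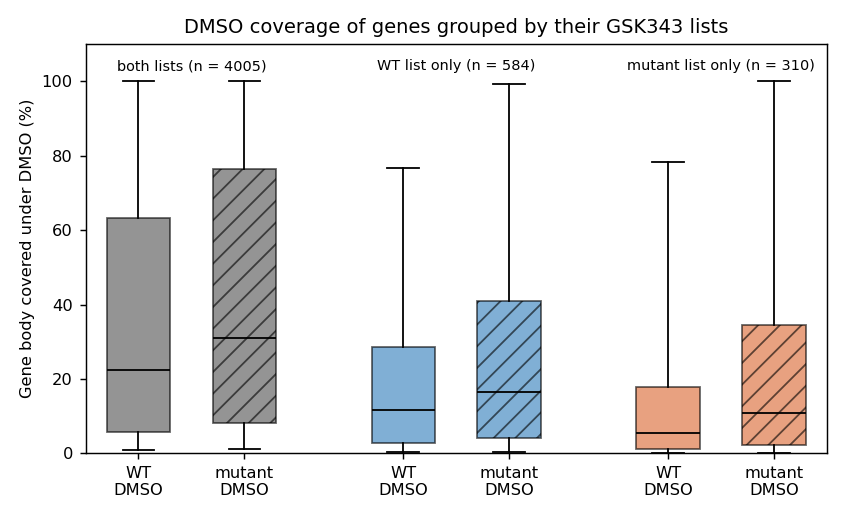
Boxes give the percent of the gene body covered under DMSO in WT (plain) and mutant (hatched) cells, for genes grouped by the GSK343 list or lists that hold them. Lines in the boxes are medians, boxes span the quartiles and whiskers the 5th to 95th percentile over genes. In each group the mutant median is the larger, at 31.1% against 22.5% for shared genes.

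The WT-only genes of most covered bases with no mutant peak within 5 kb were Atp7b, Papln, Lrrc37a, Errfi1, 4930519G04Rik, Slc24a1, Sycp1, Plxnb2, Mfsd4a and Spdef, with 2.286 to 4.24 kb each. Atp7b (a copper-transporting ATPase; chr8:21992783-22060074) had 4240 bp in 2 WT peaks, and 11946 bp in WT and 12491 bp in mutant cells under DMSO. The nearest mutant GSK343 peak lay 914 kb away, and 21 peak numbers are missing from the mutant list in between, so a removed mutant peak at Atp7b cannot be told apart from none. Papln (papilin, of the extracellular matrix; chr12:83762994-83795140) had 3915 bp in WT and a nearest mutant peak at 214.5 kb, with none missing. Errfi1 (chr4:150853796-150868889) had 2650 bp in a single WT peak, 17.6% of its body, with 4304 bp in WT and 5186 bp in mutant cells under DMSO. Sycp1, a synaptonemal complex protein of meiosis, had 2474 bp in WT under GSK343 and 39362 bp under DMSO, where the mutant list covered 64243 bp. Plxnb2 (a semaphorin receptor), Slc24a1 (an ion exchanger of rod photoreceptors), Mfsd4a (a transporter of the facilitator superfamily) and Spdef (an Ets factor of secretory epithelium) had 2.286 to 2.49 kb. All 10 had a DMSO peak in both genotypes.

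The mutant-only genes of most covered bases with no WT peak within 5 kb were Sparc, Dscam, Htr1a, Ccdc80, 2510009E07Rik, Tle6, Ppp2r3a, Adcy1, Slfn4 and Grin2a, with 1.22 to 1.61 kb each. Sparc (a matrix glycoprotein; chr11:55394159-55420080) had 1608 bp in 1 mutant peak, and its nearest WT peak lay 6.94 kb away. Under DMSO it had 3267 bp in WT and 2922 bp in mutant cells. Htr1a (a serotonin receptor; chr13:105443693-105448133) was covered over 33.4% in mutant cells, and over 68.0% in WT and 96.1% in mutant cells under DMSO. Dscam (chr16:96587452-97171113) had 1499 bp in 2 mutant peaks, 1 of them over the promoter printed above. Adcy1, an adenylyl cyclase of neurons, had 1297 bp with a fold of 3.32, and Ppp2r3a, a regulatory subunit of phosphatase 2A, had 1331 bp with a fold of 3.15. For Tle6 and Slfn4 the WT list lacks 2 and 1 peak numbers between the flanking peaks. All 10 had a DMSO peak in both genotypes. The most bases covered in mutant cells alone in this set (1608 bp at Sparc) were fewer than at the tenth gene of the WT set (2286 bp at Spdef).

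Numbers missing from the peak names bear on which genes count as unmarked. Peaks are numbered along each chromosome in every list, and 387 numbers are missing between autosomal peaks of the WT GSK343 list and 349 in the mutant GSK343 list. Per the file names, peaks in blacklisted regions had been removed. The lists do not give the position of a missing peak beyond its neighbours. A missing mutant number fell between the peaks flanking 40 of the 584 WT-only genes (6.85%), and a missing WT number between those flanking 14 of the 310 mutant-only genes (4.52%). For genes in neither list the shares were 7.73% with a missing mutant and 6.69% with a missing WT number. Without those genes 544 were in WT only and 296 in mutant only, a count chosen after the data were seen.

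WT-only genes outnumbered mutant-only genes under each of the 12 alternatives run, by margins that differed. The counts were 576 and 396 at a q-value of at most 0.01, 760 and 313 at a fold of at least 3, and 560 and 503 at a −log10 p of at least 5. Where a 1-list-only gene needed a fold of at least 3 against the full other list, there were 153 and 60. The mutant list covers less of the genome and holds fewer peaks. With both lists cut to the same number of peaks by p-value the counts were 524 and 352. Covered bases were not made equal by this. By chromosome the WT-only count exceeded the mutant-only count on all 19, from 32 against 31 on chromosome 1 to 17 against 4 on chromosome 19. All these counts rest on the same 1 list per genotype, so neither settings nor chromosomes are replicates of genotype.

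**Figure D5:**
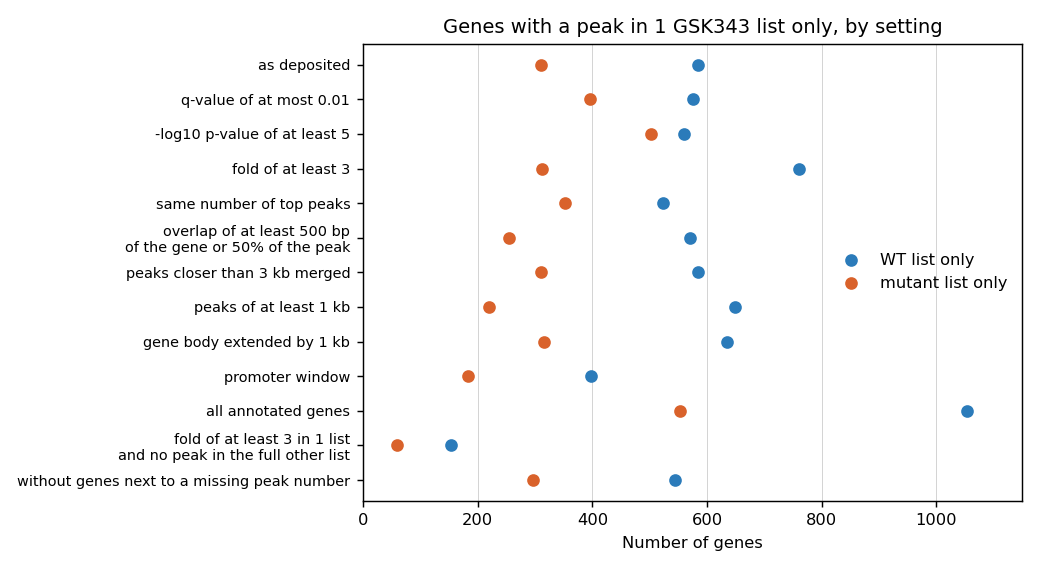
Number of genes with a peak in the WT GSK343 list only (blue) and in the mutant GSK343 list only (orange), on the horizontal axis, for the lists as deposited and each alternative setting on the vertical axis. The blue point lies to the right under each setting, closest at a −log10 p of at least 5 (560 and 503 genes).

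Peak positions were compared directly. Of WT GSK343 peaks 57.6% were overlapped by a mutant peak (56.7 to 58.5%), and of mutant GSK343 peaks 71.6% by a WT peak (70.7 to 72.5%). Inside gene bodies the shares were 69.6% and 79.1%, and outside them 39.8% and 58.8%. Overlapped WT peaks had a median width of 1914 bp against 561 bp for the rest, and overlapped mutant peaks 1429 bp against 419 bp. Wide peaks have more bases to be met, which these shares do not take into account.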

How the data were processed

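H3K27me3 ChIP-seq of cultured mouse splenic B cells was available as 4 lists of broad peaks, 1 per genotype and treatment. Per the submitters' processing notes, the tools were bcl2fastq, Bowtie2 2.4.2, SAMtools 1.12, MACS2 2.2.7.1, bedtools 2.29.2 and deepTools 3.5.1, and the build was mm10. Their settings are not given in the sources used here. Each deposited peak has a score, a fold (a linear ratio of ChIP over background), and the −log10 of its p-value and q-value, all made by the authors' peak caller. Folds and p-values described or filtered the peaks of one list at a time, and the scores were not used. As exceptions, shared genes were ranked by the lower of their folds in the GSK343 lists. Counts at a common cutoff were also set side by side. Peaks in blacklisted regions had been removed before deposit, per the file names. The genotype and treatment of a list were read from its peak names.

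Peaks on chromosomes 1 to 19 were intersected with the 20661 protein-coding gene bodies of the RefSeq table of GRCm38.p6, the assembly that mm10 denotes. A gene was in a list when at least 1 bp of its body lay in a peak. Coverage is the share of the body within peaks. The gene table gives neither strand nor exons, so whether a peak is exonic or intronic is not given. Promoter windows were used for the 16456 genes that the promoter table holds, which has none on chromosome 18. A gene with several windows was taken at its highest CG count, and a peak over any of them counted. Shares carry 95% Wilson intervals for counting error. With 1 list per group no test was made, and the depth of the samples is unknown.

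Named were the 10 shared genes with the highest lower value of their best folds, the 10 genes per genotype with most covered bases and no peak of the other GSK343 list within 5 kb, the 5 shared genes per direction and of at least 5 kb with the largest difference in coverage, the mutated genes and Ezh2 with their neighbours within 5 Mb, and members of fixed gene lists. The first 2 genes of each class with a peak over their window had their promoter printed. Members of gene lists named for their difference in coverage, beyond those the rule took, were chosen after their values were seen. The members and lists were chosen with earlier results of these data known. Alternatives were other thresholds on q, p and fold, list lengths, overlaps, peak merging and width, gene regions and gene sets. One alternative, on missing peak numbers, was chosen after seeing the data. Scripts ran in Python 3.11.15, using pandas 2.3.3 and numpy 2.4.6 for tables, scipy 1.17.1 for intervals and matplotlib 3.10.9 for plots. On simulated data the class of 2000 of 2000 genes was recovered, and 16 of 16 overlap counts equalled those of bedtools 2.31.1.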

Additional observations from a re-analysis of the deposited data

How the results depend on the processing

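Of 126 values of 12 results under 12 alternatives, 75 moved by less than their counting interval or 1.5 times, and 51 moved further. The WT-only genes stayed more numerous than the mutant-only genes throughout. Under some settings the order of the WT-only and mutant-only shares turned, both for a DMSO peak of the other genotype and for a GSK343 peak within 5 kb. Values below follow 1 order: WT-only and mutant-only genes with a DMSO peak of the other genotype, then those with a GSK343 peak of the other genotype within 5 kb, then WT and mutant peaks overlapped. At a q-value of at most 0.01 they were 99.1%, 98.7%, 9.90%, 10.6%, 69.4% and 76.4%. At a −log10 p of at least 5 they were 99.6%, 99.0%, 10.5%, 9.15%, 71.0% and 72.6%, with 503 mutant-only and 2527 shared genes. At a fold of at least 3 they were 99.1%, 98.4%, 10.3%, 10.9%, 63.2% and 79.9%. With an overlap of at least 500 bp of the gene or 50% of the peak they were 98.2%, 99.2%, 56.4%, 65.7%, 42.1% and 60.8%. For peaks that spanned at least 1 kb they were 99.2%, 99.5%, 12.3%, 15.1%, 67.3% and 86.5%. The peak overlaps were 62.2% and 70.2% for lists cut to the same number of peaks, and 61.5% and 75.3% after merging peaks closer than 3 kb. On promoter windows there were 183 mutant-only and 2077 shared genes, with 98.9% of mutant-only genes in the WT DMSO list, 60.5% and 67.8% within 5 kb and a median coverage of 100% in both genotypes. With all annotated genes 1053 were WT only and 552 mutant only, with 25.6% and 26.1% within 5 kb. With a fold of at least 3 against the full other list 153 were WT only and 60 mutant only, with 98.7% of WT-only genes in the mutant DMSO list and 31.4% and 25% within 5 kb. The cause of these shifts was not tested, beyond the fewer peaks or genes that a setting leaves. The mutant to WT ratio of genes with a GSK343 peak ranged from 0.871 to 0.982 around 0.940. No paired analysis was possible because each genotype and treatment has 1 peak list and no value per replicate. For the same reason no replicate could be left out. Depth is unknown, so a gene without a peak is one without a called peak, not one without the mark.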

Other observations

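Genes around the mutated loci were counted. Within 5 Mb of Ifih1 lay 44 genes, of which 10 were shared, 6 were WT only (13.6% against 2.83% of all genes) and 1 was mutant only. The 6 were Ccdc148, Cd302, Slc4a10, Fign, Csrnp3 and Scn9a, and the mutant-only gene was Scn1a. Ccdc148 had 1251 bp in WT cells with a mutant peak 0.513 kb outside the gene, and Slc4a10, a bicarbonate transporter of neurons, had 1061 bp with the nearest mutant peak at 215.4 kb. Within 5 Mb of Ddx58, 3 of 110 genes were WT only and 1 was mutant only. Within 5 Mb of Cgas, 0 of 58 were WT only and 1, the secretogranin gene Scg3, was mutant only. The count near Ifih1 was not tested.

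The strongest peaks found in one genotype were listed, chosen after their values were seen. Among WT-only genes with no mutant peak within 5 kb the highest folds in the WT list were 3.79 at Them7, in a peak of 1096 bp, and 3.74 at Fbxo10, a component of a ubiquitin ligase. Among mutant-only genes with no WT peak within 5 kb, Ano2, a calcium-activated chloride channel, had a fold of 10.8 over 333 bp in the mutant GSK343 list. Its DMSO peaks had folds of 2.28 in WT and 2.25 in mutant cells. Next came Plau (urokinase) with 3.55 over 179 bp and Axl (a receptor tyrosine kinase) with 3.54. The mutant-only gene Ncapd3, a condensin subunit, had a fold of 14.2 and a −log10 q of 63.2 in the mutant list, but a WT GSK343 peak lay 0.146 kb outside the gene.

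A GSK343 peak without any DMSO peak in the gene was rare, with 12 WT-only genes, 6 mutant-only genes and 5 shared genes. The WT-only genes included Kctd12 and Lamb3, and the mutant-only genes Smarca5 and Tcf12. The 5 shared genes were BC107364, Cbr3, Exoc3l4, Ifi27l2b and Pfdn4. Exoc3l4 was covered over 61.0% in WT and 64.7% in mutant cells under GSK343, and BC107364 over 49.4% and 38.9%. At all 5 shared genes both DMSO lists lack peak numbers between the flanking peaks, from 1 at BC107364 in each list to 5 in WT and 3 in mutant cells at Exoc3l4. At the 18 genes of 1 list this was so for 0. The positions of the missing peaks are not given in the lists, so a removed DMSO peak cannot be told apart from none at these 5 genes.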
